A study of Mus musculus with 6 samples.

Results

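The genes described here are 10 developmental zinc finger transcription factor genes, Sall1, Sall2, Sall3, Sall4, Tshz1, Tshz2, Tshz3, Zfhx3, Zfhx4 and Wt1, chosen by gene symbol from the 24453 rows of the count files. The choice was made with the levels of these genes in the same libraries known, so their differences between the groups are given as a description, without p-values. RNA sequencing was done on 6 libraries of skin cells sorted from newborn mice at postnatal day 0, 3 labelled control and 3 labelled Ring1a/b 2KO with the genotype Ring1a-/- Ring1b-/-. RING1A and RING1B, encoded by Ring1 and Rnf2, are the ubiquitin ligases of Polycomb repressive complex 1 (PRC1). The labels call the cells hair follicle cells, whereas the protocol attached to them sorts interfollicular epidermis (EpCAM and Sca1 positive, high α6-integrin). The labels name no Cre driver, no age at deletion and no allele in the controls. They do not say whether replicate libraries came from separate animals, so the errors below measure the spread between libraries, which may be technical.

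PRC1 places ubiquitin on histone H2A and, together with PRC2, keeps genes of other lineages silent, often at promoters rich in CpG dinucleotides. The SALL proteins are relatives of Drosophila spalt and recruit the NuRD deacetylase complex; SALL1 is needed for kidney and limb development, and SALL4 for embryonic stem cells and limb. The TSHZ proteins are relatives of Drosophila teashirt, a homeotic regulator of the trunk, and TSHZ3 is needed for smooth muscle of the ureter. ZFHX3 and ZFHX4 are very large proteins that combine zinc fingers with several homeodomains, and WT1 is a factor of kidney, gonad and mesothelium.

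The libraries held 24.8 to 30.8 M counts (M, mega), so that 1 count stood for 0.0323 to 0.0392 CPM (CPM, the count divided by the TMM-scaled library total in M). Ring1 was at 19.5, 22.4 and 3.37 CPM under the label control and at 1.84, 7.34 and 14.1 CPM under the label 2KO, and Rnf2 ranged from 47.1 to 79.4 and from 66.4 to 89.1 CPM, so that neither targeted gene separated the groups. Control replicate 3 had less Ring1 than 2 of the 2KO libraries. A deleted allele can still give reads outside the lost exons, so gene-level counts do not settle the genotype, and the groups are named by their labels. Xist was high (4552 to 5358 CPM) in control replicate 3 and 2KO replicates 1 and 2, and low (2.48 to 10.4 CPM) in the other 3 libraries. Krt5 and Krt14, keratins of basal keratinocytes, were abundant in every library (at least 7632 and 1474 CPM), while Ly6a, which encodes Sca1, stayed between 1.92 and 7.27 CPM.

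Of the 10 genes, 9 had enough counts to be tested, and 6 of these were past the threshold (edgeR quasi-likelihood test, Benjamini-Hochberg adjusted p under 0.05 over all 14972 tested genes) as higher in the libraries labelled 2KO. These were Wt1, Sall1, Sall3, Zfhx4, Zfhx3 and Tshz3, while Sall2, Tshz1 and Tshz2 did not pass, none passed as lower, and Sall4 was too low to be tested. Of all tested genes 6.61% passed as higher and 2.42% as lower; since the members were chosen from this contrast, nothing is read from their count. The levels in the 2KO libraries lay above all control libraries for 8 of the 10 genes, the 6 genes that passed with Sall2 and Sall4, and for 7 of the 9 tested, against 15.2% of all tested genes (28.4% in either direction). All 6 genes passed also without control replicate 3 and without 2KO replicate 3. In bulk RNA, fewer cells of a type and less RNA per cell cannot be told apart, and this holds for each level below. The median log2 fold change of all tested genes was -0.02. The 6 genes differed in where they started: Wt1 and Sall1 had 0 counts in every library labelled control, Sall3 had 4 counts in all, and Zfhx4, Tshz3 and Zfhx3 were already transcribed.

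**Figure D1:**
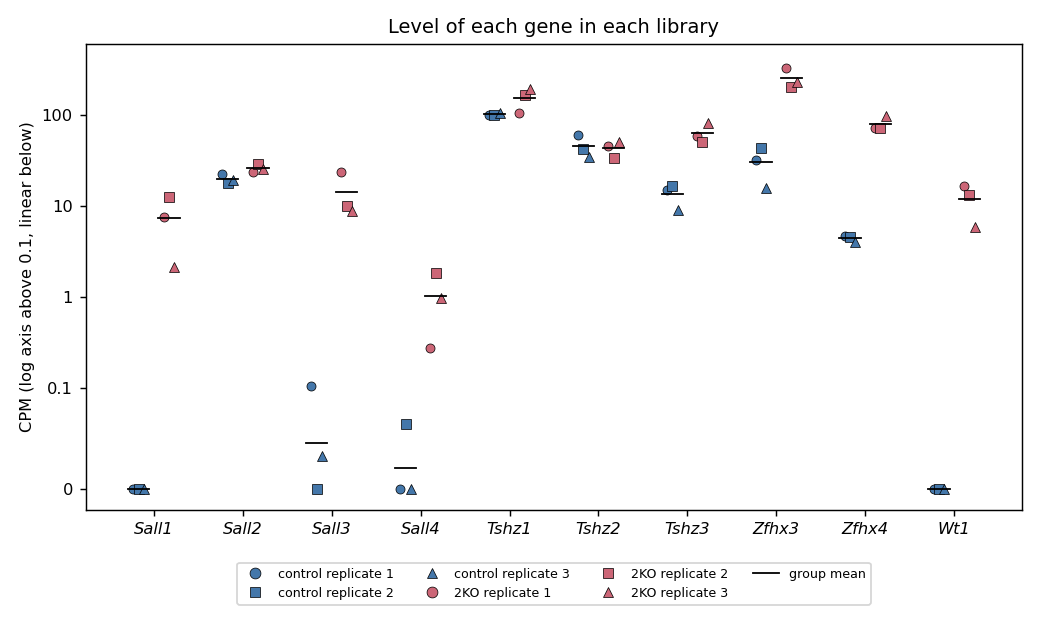
Level of each gene in CPM (vertical axis, logarithmic above 0.1 CPM and linear below) in the 3 libraries labelled control (blue) and the 3 labelled 2KO (red); symbols mark the replicate number and horizontal bars the group means. Wt1 and Sall1 lie at 0 in all control libraries and between 2.16 and 16.5 CPM in 2KO, whereas the groups of Tshz1 and Tshz2 overlap.

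**Figure D2:**
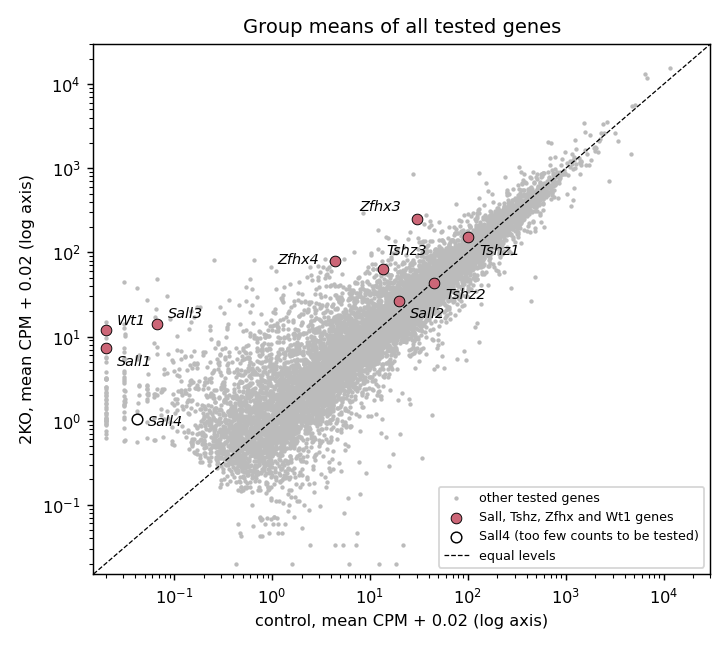
Mean CPM of the libraries labelled 2KO against that of the libraries labelled control, both on logarithmic axes after adding 0.02 CPM, for all tested genes (grey), the 9 tested genes described here (red) and Sall4 (open). Wt1, Sall1 and Sall3 lie at the left edge, near 0 in control, and Tshz2 lies close to the line of equal levels.

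To set these differences beside the sequence of the promoters, the RefSeq windows from 250 bases before to 50 after each start site (GRCm38.p6) were read. The table held windows for 5 of the 10 genes, Sall1, Sall2, Tshz2, Tshz3 and Zfhx3; those of Sall3, Sall4, Tshz1, Zfhx4 and Wt1 were not used here. The 250 bases upstream of a start are printed 5′ to 3′ on the strand of the gene, with each CpG (the letters CG, searched on this strand and identical on the other) in capitals, for 3 genes that were past the threshold and 2 that were not.
Sall1, chr8:89044163-89044412, minus strand: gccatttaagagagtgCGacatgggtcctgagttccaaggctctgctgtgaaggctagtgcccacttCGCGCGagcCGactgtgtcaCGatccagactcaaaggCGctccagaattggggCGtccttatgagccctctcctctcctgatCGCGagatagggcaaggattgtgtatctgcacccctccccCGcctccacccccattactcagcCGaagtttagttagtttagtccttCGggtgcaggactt
Tshz3, chr7:36697868-36698117, plus strand: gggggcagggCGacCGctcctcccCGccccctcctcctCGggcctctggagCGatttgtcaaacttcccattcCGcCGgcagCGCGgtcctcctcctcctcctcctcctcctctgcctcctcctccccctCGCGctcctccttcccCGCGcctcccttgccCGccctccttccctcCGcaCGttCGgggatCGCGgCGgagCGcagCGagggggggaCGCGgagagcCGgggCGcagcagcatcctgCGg
Zfhx3, chr8:108714394-108714643, plus strand: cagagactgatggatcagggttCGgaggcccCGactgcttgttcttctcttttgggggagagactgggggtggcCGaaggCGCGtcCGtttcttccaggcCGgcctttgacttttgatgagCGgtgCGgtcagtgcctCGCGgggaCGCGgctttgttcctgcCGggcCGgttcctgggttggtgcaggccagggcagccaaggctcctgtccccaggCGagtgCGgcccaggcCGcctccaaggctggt
Sall2, chr14:52316324-52316573, minus strand: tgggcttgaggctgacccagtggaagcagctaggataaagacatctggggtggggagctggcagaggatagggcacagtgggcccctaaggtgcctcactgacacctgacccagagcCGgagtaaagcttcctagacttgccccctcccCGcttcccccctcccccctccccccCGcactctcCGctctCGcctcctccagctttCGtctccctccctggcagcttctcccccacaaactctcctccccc
Tshz2, chr2:169632259-169632508, plus strand: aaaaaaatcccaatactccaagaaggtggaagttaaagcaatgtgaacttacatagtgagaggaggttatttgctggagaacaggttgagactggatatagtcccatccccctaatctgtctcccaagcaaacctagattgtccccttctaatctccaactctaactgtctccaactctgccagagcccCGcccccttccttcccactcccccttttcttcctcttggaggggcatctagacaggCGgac
The whole window of 300 bases held 33 CpG for Tshz3, 21 for Zfhx3, and 18, 27 and 39 for the 3 start sites of Sall1, in order from the most upstream, of which the most upstream is printed. It held 2 for Tshz2, and 1 and 10 for the 2 start sites of Sall2, of which the site with 10 is printed because the other window overlaps an exon. Over all 32841 windows the median was 7 CpG, and 8.6% held at least as many as Tshz3, 24.8% as many as Zfhx3, 29.7%, 15.5% and 4.4% as many as the 3 sites of Sall1, 85.9% as many as Tshz2, and 94.6% and 43.5% as many as the 2 sites of Sall2. In this small set each window of the genes past the threshold was therefore richer in CpG than each window of Sall2 and Tshz2. The Zfhx3 window lies inside the gene as GENCODE draws it (chr8:107942644-108961630), at an internal start. The printed Sall2 window and the more downstream Sall1 windows also lie inside their genes. The Tshz2 window ends at chr2:169632558, before the gene start at 169633013. Which start sites were used in these cells was not measured, and a tie between CpG content and the differences was not tested.

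Within the Sall family, the gene already on in control was Sall2, and the others were close to silent there. Sall1 (ENSMUSG00000031665.7, chr8:89027235-89044162, minus strand) had 0 counts in each library labelled control and 192, 372 and 55 counts in those labelled 2KO, or 7.53, 12.4 and 2.16 CPM. All 3 libraries labelled 2KO were above the control libraries, with replicate 2 the highest and replicate 3 the lowest. Against a floor of 3 counts over the control group (0.0334 CPM), the mean of 7.36 ± 5.13 CPM (SD, n = 3) was at least 220-fold higher. The bound was 145 without 2KO replicate 2 and between 144 and 151 without any one control library.

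Sall3, whose product is a close relative of SALL1, had 3, 0 and 1 counts in the libraries labelled control and 608, 301 and 223 in those labelled 2KO. Its level was 23.8, 10.0 and 8.74 CPM in 2KO against 0.106, 0 and 0.0327 CPM, with replicate 1 the highest in both groups and no overlap between them. The fitted log2 fold change was 8.17 (SE 0.82), and it was 9.44 without control replicate 1 and 7.59 without 2KO replicate 1. Without control replicate 1, only 1 control count is left behind this value.

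Sall4 (chr2:168748332-168767943, minus strand), the family member of early embryo and germ cells, was barely detected. It had 0, 2 and 0 counts in the libraries labelled control and 7, 55 and 25 in those labelled 2KO, that is 0.274, 1.83 and 0.98 CPM in the latter. The ratio of the summed counts was 48.2, with a 95% counting interval of 13 to 405 that covers counting error only. Sall4 did not pass when the filter on low counts was dropped, and was past the threshold without 2KO replicate 1, its lowest 2KO library.

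Sall2 (ENSMUSG00000049532.11, chr14:52311172-52328762, minus strand), the most divergent of the family, was at 22.3, 17.7 and 19.2 CPM in control. In 2KO it was at 23.9, 29.0 and 25.5 CPM. The groups did not overlap, but the gap between the highest control and the lowest 2KO library was small beside the spread within each group. The log2 fold change was 0.40 (SE 0.22), and Sall2 did not pass.

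In the Tshz family the 3 genes were all transcribed in both groups, and Tshz3 was the one past the threshold. Tshz3 (ENSMUSG00000021217.7, chr7:36698118-36773553, plus strand) was at 14.8, 16.6 and 9.02 CPM in control and at 58.0, 50.1 and 81.1 CPM in 2KO. The lowest 2KO library was above the highest control library, and the mean went from 13.5 ± 3.94 to 63.1 ± 16.1 CPM (SD, n = 3), a 4.69-fold difference (log2 fold change 2.23, SE 0.30). Its promoter, printed above, is the one with the most CpG among the genes with a single window.

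Tshz1, needed for the olfactory bulb and the soft palate, was the most abundant gene of the family. It was at 99.9, 98.6 and 105 CPM in control and at 105, 165 and 193 CPM in 2KO. Replicate 1 of 2KO lay at the level of control replicate 3, and replicates 2 and 3 were above all control libraries. The log2 fold change was 0.61 (SE 0.22) and did not pass, while without 2KO replicate 1 it was 0.84 and passed.

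Tshz2 (ENSMUSG00000047907.11, chr2:169633013-170071816, plus strand) was at 59.6, 42.0 and 34.5 CPM in control and at 45.9, 33.7 and 50.5 CPM in 2KO. The groups overlapped over most of their range. The log2 fold change was -0.06 (SE 0.26), and its sign turned to 0.20 without control replicate 1 and to 0.10 without 2KO replicate 2.

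Both Zfhx genes were transcribed in control and past the threshold. Zfhx3 (ENSMUSG00000038872.10, chr8:107942644-108961630, plus strand), also known as ATBF1 and a regulator of the circadian clock in the brain, was at 31.6, 43.8 and 15.8 CPM in control. In 2KO it was at 325, 203 and 227 CPM. Every 2KO library was far above the highest control library, and the 8.28-fold difference (log2 fold change 3.05, SE 0.36) came with a wide spread in control, where replicate 3 was the lowest.

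Zfhx4 (ENSMUSG00000025255.18, chr3:5218526-5415857, plus strand), a relative of Zfhx3 active in developing brain and muscle, had the most even levels of the genes past the threshold. It was at 4.68, 4.58 and 3.99 CPM in control and at 70.9, 71.5 and 96.7 CPM in 2KO. The mean was 18-fold higher (log2 fold change 4.17, SE 0.24). Zfhx2, the third mouse gene of this kind, was at 42.3, 48.3 and 29.9 CPM in control and at 51.0, 68.3 and 69.7 CPM in 2KO, and did not pass (log2 fold change 0.65 with SE 0.24; adjusted p = 0.14 by edgeR).

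Wt1 (ENSMUSG00000016458.14, chr2:105126529-105173616, plus strand) had 0 counts in each library labelled control and 420, 396 and 151 counts in those labelled 2KO. Its level in 2KO was 16.5, 13.2 and 5.92 CPM, lowest in replicate 3 as for Sall1. The mean of 11.9 ± 5.40 CPM (SD, n = 3) was at least 355-fold higher against the floor of 3 counts over the control group, and at least 233-fold without control replicate 2. Wt1os, a noncoding gene that lies head to head with Wt1 on the other strand, 18 bases away, was named after its values were seen; it had 0 counts in control and 2, 4 and 0 counts in 2KO.

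Because long genes collect more reads, levels of different genes were compared per kb of exon (the union of exons in GENCODE vM21). On this scale Sall2 made up 99.7 ± 0.131% of the summed Sall level in the libraries labelled control (SD, n = 3). In those labelled 2KO it made up 48.6, 56.9 and 72.8%, with Sall3 at 35.1, 14.3 and 18.1%, Sall1 at 15.8, 25.2 and 6.35% and Sall4 at no more than 3.54%. The summed Sall level went from 3.65 ± 0.436 to 8.29 ± 1.61 CPM per kb. The order in 2KO was Sall2 above Sall3 and Sall1 by group mean (4.81, 1.9 and 1.4 CPM per kb), and Sall3 and Sall1 did not differ beyond their spread (SD 1.12 and 0.974).

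Tshz1 had the highest level per kb of the 10 genes in both groups, at 17.3 ± 0.590 and 26.4 ± 7.69 CPM per kb (SD, n = 3). Tshz3 was the lowest of its family in control (2.47 ± 0.722, against 5.83 ± 1.65 for Tshz2) and was above Tshz2 in 2KO (11.6 ± 2.95 against 5.58 ± 1.12), where its share of the summed Tshz level was 22.0 to 30.8%, against 6.87 to 12% in control. Zfhx3 exceeded Zfhx4 in each library, with 74.8 to 87.8% of their sum in control and 63.8 to 77.5% in 2KO. Zfhx3 and Tshz3 stood side by side in 2KO (12 ± 3.09 and 11.6 ± 2.95 CPM per kb) and did not differ beyond their spread, as was true of Wt1 and Sall3 (1.92 ± 0.871 and 1.90 ± 1.12).

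**Figure D3:**
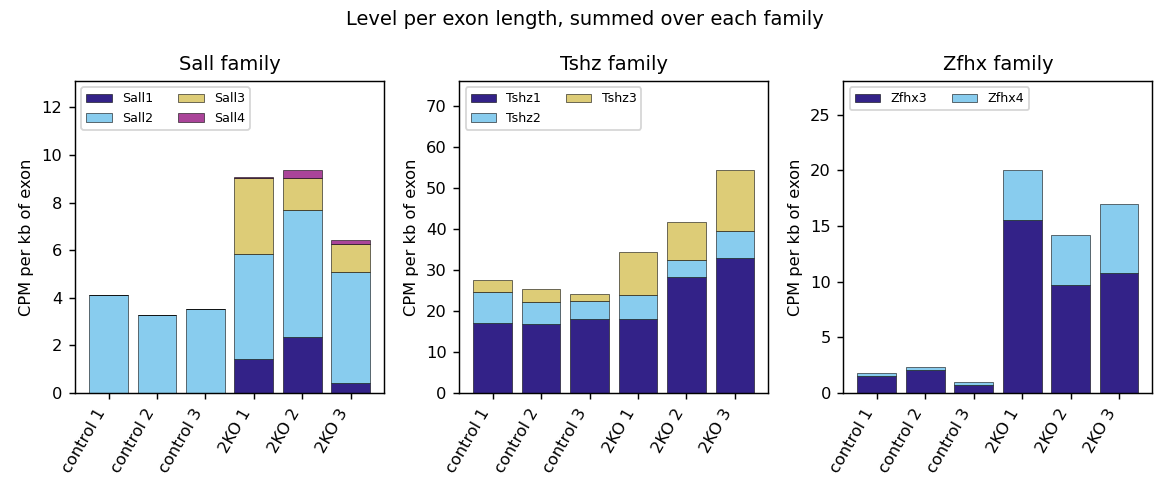
Level per kb of exon (CPM per kb, vertical axes from 0) of each gene, stacked over the genes of the Sall, Tshz and Zfhx families, in each library. In control the Sall bar is almost wholly Sall2, and in 2KO Sall1 and Sall3 add to it; the Zfhx sum is 1.01 to 2.38 CPM per kb in control and 14.2 to 20 in 2KO.

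The libraries labelled 2KO did not rank the genes in the same way. Sall1, Sall3 and Wt1, nearly silent in control, were lowest in replicate 3, by 5.75, 2.73 and 2.78 times against their highest 2KO library. Tshz1, Tshz2, Tshz3 and Zfhx4 were highest in that replicate. Sall4, also nearly silent in control, was lowest in replicate 1, by 6.69 times against its highest 2KO library. Of the 10 genes, 4 were lowest in replicate 1, 3 in replicate 2 and 3 in replicate 3. The coefficient of variation among the 2KO libraries was 75.9% for Sall4, 69.6% for Sall1, 58.9% for Sall3 and 45.5% for Wt1. It was between 9.82% and 29.1% for the genes with at least 4 CPM in control.

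Replicate 3 of 2KO was also the 2KO library with low Xist and with the most Ring1, and the part of either in these differences was not tested. Within the libraries high in Xist (1 control and 2 of 2KO), mean levels were 5.99-fold higher in 2KO for Tshz3, 16.7-fold for Zfhx3 and 17.9-fold for Zfhx4. Within those low in Xist (2 control and 1 of 2KO) they were 5.18-fold, 6.01-fold and 20.9-fold higher. Sall3 was 518-fold and 164-fold higher, and Wt1 and Sall1 were at 14.8 and 9.97 CPM in the first set and at 5.92 and 2.16 CPM in the second, against 0 in control in both. Each set rests on a single library in one of its groups, and the difference between the sets was not tested.

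To see whether genes beside these loci moved with them, the nearest protein-coding gene on each side and every overlapping gene with a row in the files were read. Of 24 such genes 13 could be tested, and none passed the threshold in either direction (edgeR quasi-likelihood test), against 9.02% of all tested genes; 1, Tox3, had an unadjusted p under 0.05, and DESeq2 and limma-voom called 0. Tox3, 1203 kb from Sall1, was at 41.9, 60.7 and 25.5 CPM in control and at 60.3, 73.4 and 99.0 CPM in 2KO (log2 fold change 0.86, edgeR adjusted p = 0.143), with the groups overlapping. Around the 6 genes past the threshold, 7 neighbours were tested. Ccdc73, 109 kb from Wt1, was at 3.53 and 4.64 CPM by group mean (edgeR adjusted p = 0.702), Atp9b, 32.3 kb from Sall3, at 58.3 and 57.2 CPM (0.96), and Pex2, 144 kb from Zfhx4, at 18.8 and 19.9 CPM (0.91). Psmd7, a proteasome subunit gene 354 kb from Zfhx3, was at 85.1 and 101 CPM (0.467), and Zfp507, 895 kb from Tshz3, at 66.3 and 63.1 CPM (0.894).

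The neighbours too low to be tested included other genes that were nearly silent in both groups. Galr1 next to Sall3 and Hnf4g next to Zfhx4 had 0 counts in all 6 libraries. Zfp536, a zinc finger gene 699 kb from Tshz3, was at 0.315 CPM in control and 0.0784 CPM in 2KO by group mean, and Them7 next to Wt1 at 0.114 and 0.0523 CPM. On the other strand, 2700069I18Rik, which overlaps Zfhx4, was at 0 in control and at 0.118, 0.133 and 0.0784 CPM in 2KO. A630075F10Rik, which overlaps Tshz2, was at 0.284, 0.355 and 0.0654 CPM in control and at 0.0392, 0 and 0 CPM in 2KO. Strand use in the authors' counting is not stated, so reads of such overlapping pairs cannot be told apart.

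**Figure D4:**
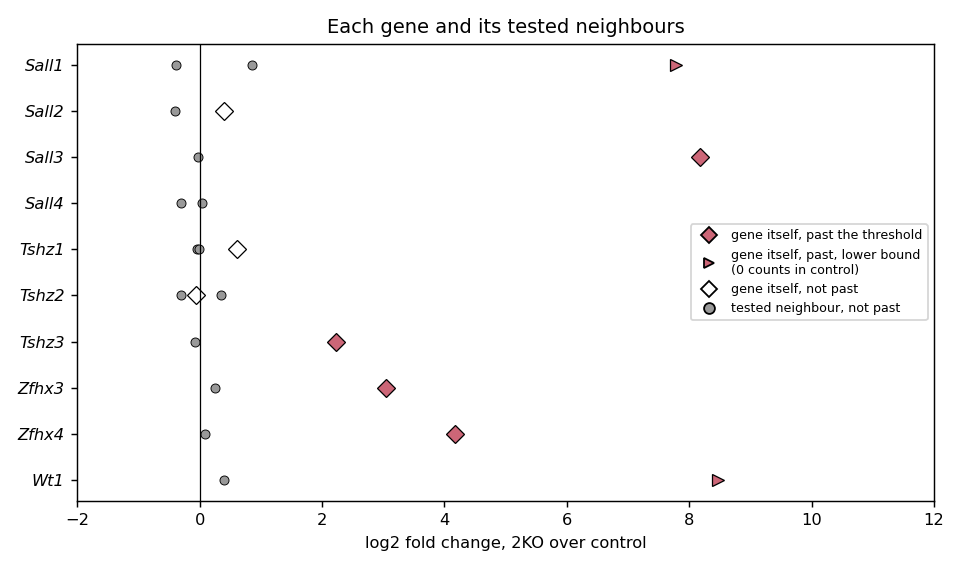
Log2 fold change of 2KO over control for each gene (diamonds, or triangles at the lower bound where control had 0 counts; red where past the threshold) and for its tested neighbours (grey circles), 1 row per gene. The 13 tested neighbours lie between -0.41 and 0.86, while the genes past the threshold lie at 2.23 or above; Sall4 itself was not tested.

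Genes that work with these factors were read from 7 lists of partners and network genes, 73 genes of which 55 could be tested. Of these 13 were higher in the libraries labelled 2KO, 1 was lower and 41 did not pass (edgeR quasi-likelihood test), where the shares over all tested genes were 6.61% and 2.42%. The filter on low counts kept a gene silent in control only through its 2KO level, so counts and medians over the tested genes lean towards rises.

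Of the 15 subunits of NuRD, the corepressor that SALL proteins recruit, all were tested and none passed (list median log2 fold change -0.12). Chd4, its remodelling ATPase, was at 721, 521 and 499 CPM in control and at 517, 385 and 403 CPM in 2KO (edgeR adjusted p = 0.274). Rbbp4, a histone-binding subunit, was at 88.5, 80.8 and 83.9 CPM in control and at 62.1, 59.1 and 49.8 CPM in 2KO (edgeR adjusted p = 0.0843). It was the 1 subunit with an unadjusted p under 0.05 and the 1 called by DESeq2, as lower; limma-voom called 0. None of the 5 WT1 cofactors (Wtip, Wtap, Basp1, Pawr and Cited2) passed (list median -0.18); Cited2 alone had an unadjusted p under 0.05, and neither DESeq2 nor limma-voom called any. None of the 9 zinc finger relatives (Zfhx2, Adnp, Adnp2, Zeb1, Zeb2 and Egr1 to Egr4) passed in the main edgeR fit either (list median -0.60). Of these, 5 had an unadjusted p under 0.05, 2 as higher (Zfhx2 and Zeb2) and 3 as lower (Adnp, Adnp2 and Egr2). DESeq2 called 2 lower (Adnp and Adnp2) and limma-voom 1 (Egr2). Other edgeR fits called some lower: Adnp2, Egr1, Egr2 and Egr3 with the replicate block, and Adnp2 and Egr2 without 2KO replicate 1. Egr2 was also called lower with no low-count filter and with both replicate 1 libraries left out.

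Among urogenital and mesothelial genes of the WT1 network, 5 of 7 tested rose, 2 did not pass and 8 were too low to be tested (median of the tested 5.04). Of the 2, Gata6 was near the threshold, at 3.81 ± 2.1 CPM in control and 12.3 ± 1.43 CPM in 2KO (SD, n = 3, edgeR adjusted p = 0.0506). DESeq2 called Gata6 higher, and limma-voom called 6 genes of the list higher. Gata4, a factor of heart and gonad, went from 0.0453 ± 0.0222 to 21.4 ± 3.17 CPM (SD, n = 3, edgeR adjusted p = 3.5e-05). Podxl, which encodes the podocyte sialomucin podocalyxin, was at 4.22, 3.90 and 0.882 CPM in control and at 50, 38.2 and 28.9 CPM in 2KO (edgeR adjusted p = 0.00303). Osr1, a factor of intermediate mesoderm, was at 0.177 ± 0.130 and 5.97 ± 1.13 CPM (edgeR adjusted p = 0.00225). Pax2, a kidney factor, had 0 counts in control and reached 3.07 ± 0.455 CPM, at least 91.9-fold higher (edgeR adjusted p = 0.00331). Lhx9, a gonad factor, had 1 count in control and 1.80 ± 1.30 CPM in 2KO, 157 times as much (counting interval at 95% of 27.8 to 6261; adjusted p by edgeR 0.0107), and missed the threshold with both replicate 3 or both replicate 1 libraries left out (edgeR adjusted p = 0.0909 and 0.0589). Under a filter of 1 CPM in 3 libraries Lhx9 was not tested.

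The 8 untested genes of that list included markers of the mature organs. The podocyte gene Nphs1 had 0 counts in all 6 libraries. The mesothelial gene Msln was at 0 in all libraries but 2KO replicate 3 (0.745 CPM), and Upk3b at 0.0654 to 0.674 CPM in control and 0 to 0.392 CPM in 2KO. Lrrn4, also of mesothelium, was at 0.274, 0.834 and 0.235 CPM in 2KO and had 1 count in control.

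Of 11 tested limb and kidney genes of the SALL network, 5 rose, 1 fell and 5 did not pass (median 1.80). Six2, which maintains nephron progenitors, was at 0.461, 1.26 and 0 CPM in control and at 43.3, 72.0 and 31.5 CPM in 2KO (edgeR adjusted p = 0.00249). Kif26b, a kinesin gene that SALL1 activates in kidney, went from 6.82 ± 1.00 to 23.6 ± 1.55 CPM (edgeR adjusted p = 0.00297). Tbx5 and Hoxa11, limb factors, reached 1.71 ± 0.864 and 2.39 ± 0.504 CPM from 1 and 4 control counts (edgeR adjusted p = 0.00937 and 0.0109). Both missed the threshold with both replicate 3 libraries left out (edgeR adjusted p = 0.112 and 0.107), and Tbx5 was not tested under the filter of 1 CPM.

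Hoxc11, the remaining rise, had 0 counts in control and 0.607 ± 0.172 CPM in 2KO (SD, n = 3, edgeR adjusted p = 0.0302). It missed the threshold on omission of any single library (adjusted p by edgeR of 0.0854, 0.0838 and 0.102 when a control library was omitted, replicate 1 to 3, and of 0.0679, 0.0972 and 0.0749 when a 2KO library was omitted). Hoxc11 also missed it with the replicate block and with the Xist covariate (edgeR adjusted p = 0.0658 and 0.0908), with both replicate 3 or both replicate 1 libraries left out (0.137 and 0.0942), and was not tested under the filter of 1 CPM. Ret, the receptor tyrosine kinase of the ureteric bud, fell from 19.3, 7.52 and 11.1 CPM to 1.33, 1.80 and 2.78 CPM (log2 fold change -2.67 with SE 0.47; adjusted p = 0.00809 by edgeR). The call of Ret was lost with both replicate 3 libraries left out (edgeR adjusted p = 0.0566) and with both replicate 1 libraries left out (0.0511). Its ligand gene Gdnf did not pass (edgeR adjusted p = 0.813).

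Of the pluripotency genes of the SALL4 network 2 of 8 could be tested. Lin28b, which encodes an RNA-binding protein of fetal cells, rose from 0.0758 ± 0.0678 to 5.25 ± 1.82 CPM (SD, n = 3, edgeR adjusted p = 0.00332), and Sox2 did not pass (edgeR adjusted p = 0.447). Pou5f1 and Nanog were at no more than 0.196 CPM in any library, and Zfp42 and Dppa4 had 0 counts in all 6. Lin28a had 0 counts in control and 0, 36 and 6 counts in 2KO, and Tdgf1 had 4 counts in control and 0 in 2KO.

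Of 6 tested smooth muscle genes of the TSHZ3 network, Tbx18 and Acta2 rose and 4 did not pass (median -0.36). Myocd, too low to be tested, had 2 counts in control and 68 in 2KO. The ratio was 37.7, with a 95% counting interval of 10 to 318 that covers counting error only. Tbx18, a T-box factor of ureter mesenchyme, went from 0.0869 ± 0.0999 to 6.98 ± 0.333 CPM (SD, n = 3, edgeR adjusted p = 0.00237). Acta2, smooth muscle actin, was at 2.23, 2.90 and 3.82 CPM in control and at 18.6, 11.4 and 6.08 CPM in 2KO (edgeR adjusted p = 0.0255). The call of Acta2 was lost without control replicates 1, 2 or 3 (edgeR adjusted p = 0.0785, 0.0706 and 0.0502) and without 2KO replicates 1 or 2 (0.0759 and 0.0625). It was also lost with both replicate 1 libraries left out and with the Xist covariate (edgeR adjusted p = 0.146 and 0.0744). The contractile genes Myh11, Cnn1, Des and Tagln did not pass (edgeR adjusted p = 0.558, 0.769, 0.645 and 0.999).

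**Figure D5:**
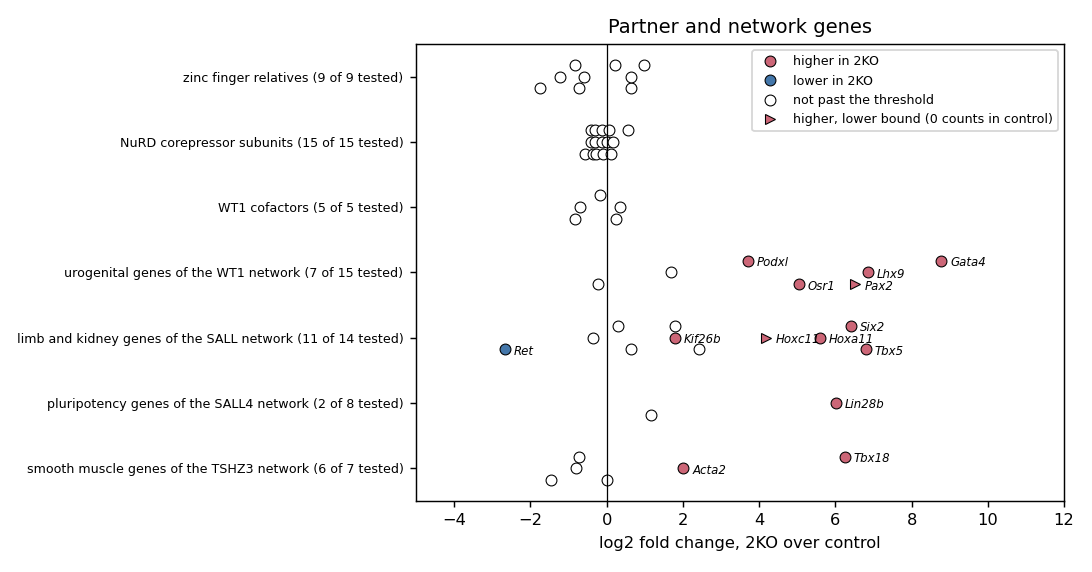
Log2 fold change of 2KO over control (horizontal axis) for the tested genes of 7 partner and network lists, 1 row per list; filled symbols passed the threshold, and triangles give the lower bound for genes with 0 control counts. The NuRD, WT1 cofactor and relative lists hold open symbols only, and the 13 rises lie in the other 4 lists.

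Several of these factors are also expressed in mesenchymal cells, so markers of other cell types were read in the same libraries. Of 12 dermal fibroblast markers 11 were tested, 2 rose and 9 did not pass, and their summed level was 527 to 930 CPM in control and 757 to 915 CPM in 2KO. The rises were those of Pdgfra (0.709, 1.26 and 0.719 CPM in control, 7.05, 7.31 and 16.2 CPM in 2KO) and Thy1 (9.01, 14.4 and 18 against 60.9, 59.2 and 23.0 CPM). Thy1 missed the threshold without control replicates 1 or 2 (edgeR adjusted p = 0.0685 and 0.0597) or 2KO replicates 1 or 2 (0.0552 and 0.0752), and with both replicate 1 libraries left out (0.11). Pdgfra missed it with both replicate 3 libraries left out (edgeR adjusted p = 0.0684). Also higher in 2KO by group mean were Col1a1 (52.1 CPM in control and 83.0 CPM in 2KO), Col3a1 (61.6 and 66.5), Dcn (381 and 474) and Pdgfrb (0.655 and 1.43). Col1a2 (58.2 and 53.2 CPM), Fbln1 (130 and 111), Lum (3.86 and 2.14), Dpt (3.56 and 2.08) and Lox (2.61 and 1.4) were lower by group mean. The untested Twist2 was lower too (0.192 and 0.0131 CPM), at no more than 0.284 CPM in any library.

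Of 6 mural and smooth muscle markers Acta2 alone rose, and their sum was 227 to 294 CPM in control and 372 to 412 CPM in 2KO. Most of this sum was Cspg4 (144 and 204 CPM by group mean) and Notch3 (109 and 170 CPM), and neither passed. Rgs5, Myh11 and Kcnj8 did not pass either, and their group means were lower in 2KO (0.659-fold, 0.606-fold and 0.865-fold). Of 5 tested dermal papilla markers none rose and Prdm1 fell, and the sum over the list was 62.6 to 117 and 24.5 to 51.5 CPM. Most of this sum was Prdm1, at 80.3 and 20.6 CPM by group mean. Among the others, Wif1 (4.51 and 12.3 CPM), Alx4 (1.11 and 3.33), Enpp2 (1.88 and 2.36) and the untested Hey2 (0.0436 and 0.116) were higher by group mean. Sox18 (0.965 and 0.292 CPM) and the untested Corin (0.367 and 0.103) were lower. Of the Merkel cell markers Krt18 rose (1 of 5 tested, sum 7.13 to 15.3 and 17.5 to 50.7 CPM), a call lost with both replicate 3 libraries left out (edgeR adjusted p = 0.0657). The sum followed Krt18, at 1.67 CPM in control and 23.9 CPM in 2KO by group mean. Sox2 was also higher by group mean (0.904 and 2.04 CPM). Lower by group mean were Krt20 (2.06 and 0.349 CPM), Krt8 (1.55 and 0.786), Isl1 (2.4 and 1.69) and the untested Atoh1 (1.53 and 0.0654). DESeq2 also called Krt20 lower. Endothelial, melanocyte, Schwann, skeletal muscle and immune markers had sums of at most 66.7 CPM in any library. No gene of these lists was past the threshold in edgeR. At an unadjusted p under 0.05 there was 1, Kdr, which DESeq2 also called, as higher, and limma-voom called 0. Kdr was at 0.308 CPM in control and 1.81 CPM in 2KO by group mean. The other endothelial markers were lower by group mean, from 0.384-fold (Tek) to 0.977-fold (Pecam1). Of 8 hair follicle keratinocyte markers Shh fell, a call lost without 2KO replicate 2 (edgeR adjusted p = 0.0512) and with both replicate 3 libraries left out (0.0965). DESeq2 also called Krt17 higher and Lhx2 lower (edgeR adjusted p = 0.0514 and 0.0558). Lef1 too had an unadjusted p under 0.05 by edgeR, as lower (291 CPM in control and 203 CPM in 2KO by group mean). Of the rest, Krt5 and Krt14 were higher by group mean (1.36-fold and 1.34-fold), and Edar and Sox9 lower (0.715-fold and 0.919-fold). Of 5 suprabasal markers none passed, with Krt1 and Krt10 at an unadjusted p under 0.05, both called lower by DESeq2 and 1 by limma-voom. Of the others, Ivl was lower by group mean (2.72 CPM in control and 1.93 CPM in 2KO). Krtdap (432 and 585 CPM) and Lor (16.5 and 27.7 CPM) were higher. The part of any of these cell types in the levels of the Sall, Tshz, Zfhx and Wt1 genes was not tested.

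Finally, the genes whose log2 CPM followed each factor most closely over the 6 libraries were listed, as a description. All points share the split into groups, and no p is given for Pearson's r. Closest to Sall1 were Tunar, Hmx1 and Dlk1 (r between 0.9961 and 0.9995), to Wt1 Nup62cl, H2-Q10 and Esx1 (0.9986 to 0.9992), to Sall3 Pkp4, Aldh1a2 and Rab6b (0.9977 to 0.9984) and to Zfhx4 Parp1, Dmrt3 and Pax2 (0.9983 to 0.9989). Those closest to Zfhx3 were Gm3636, Bend7 and B4galt5, and those closest to Tshz3 were Ltc4s, Abat and Soga1. Tunar and Hmx1, a noncoding RNA gene and a homeobox gene, had 0 control counts and reached 2.51 and 3.21 CPM in 2KO, and Dmrt3 0 and 14.8 CPM. H2-Q10 belongs to a family of near-identical copies and its counts are uncertain. The closest to Tshz2, which did not pass, were Braf, Tpr and Golim4; to Tshz1 F420014N23Rik, Mansc1 and Ddit4, and to Sall2 Got1, Tmem28 and Cdc25b.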

How the data were processed

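RNA sequencing of sorted skin cells (6 libraries, 3 per group) was read from the deposited count files: 1 file per library with a whole-number count for each of 24453 gene symbols, to which the authors applied no normalization. The submitters' processing notes name the mm10 build and the tools DESeq2 1.6.3, HTSeq 0.6.1, TopHat2 2.0.13 and Cufflinks 2.2.1, without roles; annotation and strand setting: not given in the sources used here. RNA was amplified before library construction and sequenced as single reads, per the labels' protocols, and no molecular identifiers are named, so counting intervals cover counting error only.

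With edgeR 4.0.16 in R 4.3.3, low genes were removed (filterByExpr), libraries were scaled by TMM and groups compared by the quasi-likelihood test with no covariate over 14972 genes; an adjusted p under 0.05 was past the threshold. The method was tested on simulated data in which only well-counted genes were changed. That test does not cover genes near 0 counts in control. Values are mean ± SD. A fold against 0 counts uses a floor of 3 counts over the group; with 1 to 3 counts the ratio has an exact 95% interval. Coordinates are GENCODE vM21 (GRCm38, the mm10 assembly), in which 97.1% of rows matched 1 gene; promoter sequences are RefSeq's (GRCm38.p6).

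The members and lists were chosen with earlier results of these data known. Some genes of the partner lists are not reported here and enter no list count. Named genes were the 10 members, the targeted and sort genes, partner genes past the threshold, neighbours, cell type markers, and, for each tested member whose own mean was at least 1 CPM in a group, the 3 tested genes with the highest Pearson r of log2 CPM (prior count 2); Sall4, untested, has none; further list members are named for background or for counts of 5 or fewer. Alternatives were RLE scaling, DESeq2 1.42.0, limma-voom 3.58.1, other low-count filters, a replicate block, an Xist covariate and left-out libraries. Replicates of a group differed beyond sampling noise and none was merged.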

Additional observations from a re-analysis of the deposited data

How the results depend on the processing

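The 6 genes past the threshold kept their call and direction in all 15 alternatives. The number of members higher in 2KO was 6 to 8 over single-library omissions, with Tshz1 and Sall4 added without 2KO replicate 1, and 7 with both replicate 1 libraries left out, where Tshz1 was added; none was lower. The sign of Tshz2, which never passed, turned to 0.15 with an Xist covariate, 0.20 without control replicate 1, 0.10 without 2KO replicate 2 (range over single-library omissions -0.23 to 0.20) and 0.15 with both replicate 1 libraries left out. Over all tested genes, 989 were higher and 362 lower. With both replicate 3 libraries left out 309 were higher and 72 lower; DESeq2 called 733 lower and the Xist covariate fit 228 lower. Omitting single libraries gave 615 to 854 higher and 184 to 347 lower, the lowest without control replicate 3 and 2KO replicate 2. Partner genes called lower numbered 4 with DESeq2, 2 with limma-voom, 2 with no low-count filter, 5 with the replicate block and 0 with both replicate 3 libraries left out, and 1 to 3 over single-library omissions, the 3 without 2KO replicate 1. Of the neighbours 1, Tox3, was higher with the Xist covariate. The causes were not tested.

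Replicate numbers were not used as pairs in the main fit. The correlation of deviations from group means between libraries of the same number was 0.29, 0.089 and -0.0756 for replicates 1 to 3. The value for replicate 1 was the highest of all control and 2KO pairs, while 2KO replicate 2 correlated best with control replicate 3 (0.212). Whether the replicate 1 libraries shared a batch was not tested. With the replicate block 1142 genes were higher and 540 lower, and all 6 member calls held. At 1 count per 0.0323 to 0.0392 CPM, levels under the floor of 0.0334 CPM in control and 0.037 CPM in 2KO could not be resolved, which limits Sall4 and the folds of Sall1, Sall3 and Wt1.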
